A study of Brassica napus with 27 samples.

Results

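The GRAS and TCP genes are 2 families of plant transcription regulators, and their transcripts were followed in oilseed rape leaves after treatment with auxinic herbicides. A gene was taken as a member when the domain column of the deposited expression table held the whole word GRAS or TCP, and when it reached an FPKM of 1 or more (fragments scaled by gene length and library, the deposited unit) in 3 or more of all 27 libraries. The table held 172 such genes, 97 with a GRAS and 75 with a TCP domain, and 112 of them passed the level filter, 64 GRAS and 48 TCP genes. They were read within a fit over all 46395 genes that passed the same filter, out of 104573 genes in the table.

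GRAS proteins are specific to plants and are named after 3 founding members, GAI, RGA, and SCARECROW. In Arabidopsis, the DELLA branch of the family restrains growth until gibberellin causes its degradation, the SCARECROW and SHORT-ROOT branches pattern the root and the leaf bundle sheath, and other branches act in light signalling and in axillary meristems. TCP proteins carry a basic helix-loop-helix domain of their own kind. In Arabidopsis, one class of TCP proteins is mostly linked to the promotion of cell division and growth, whereas the other restrains division at the leaf margin, with some of its members under the control of a microRNA, and represses the outgrowth of buds. Both families are known from Arabidopsis to meet the auxin, gibberellin, and cytokinin pathways in young leaves. The branch to which a rapeseed gene belongs was not given for nearly all members, so the genes are called by their IDs.

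Plants of *Brassica napus* cultivar Visby were grown at 15 °C with 12 h of light and were treated at the stage BBCH11 with 5 drops of solution. The control groups received the solvent (the labels also call them untreated), the Hal groups received halauxifen-methyl (0.5 µg per leaf in the sample labels), and the Pic groups received picloram (2.4 µg per leaf). Leaves were harvested after 2, 48, and 96 h, with 3 libraries from different plant material in each of the 9 groups, and all 27 libraries are of the same cultivar. Both herbicides are auxin mimics derived from picolinic acid, and Hal carries an additional aromatic ring and is a methyl ester. According to the paper, the Hal stock was mixed with NaOH before dilution, and whether the ester remained was not tested here. The amounts of Hal and Pic differed, and the sources do not give the unit of the amount alike, so that in every comparison of Hal with Pic the compound and the amount cannot be told apart.

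The libraries held between 15565637 and 19692242 reads on genes, with a median of 16989644. Summed FPKM of leaf mesophyll markers (chlorophyll a-b binding proteins and the small subunit of Rubisco) lay between 98665 and 198111, and that of seed storage and oil body genes between 0 and 1.38 in the leaf libraries. Genes with at least 1 read were fewest in Hal 2 h replicate 3 (53523, against a median of 59270). The deposited values are not scaled by the total of reads, since each library was divided by a figure that ranged from 0.751 to 1.25 of its own total, from 0.751 to 0.808 in the controls of 96 h, and from 1.20 to 1.25 in the Hal libraries of 96 h. When all libraries were instead set to equal totals of reads, the median change over all tested genes (log2) at 96 h moved from 0.012 to 0.43 after Hal and from -0.011 to 0.28 after Pic, and at 48 h from 0.0077 to 0.26 and from -0.0046 to 0.14. At 2 h it moved only to 0.014 after Hal and 0.017 after Pic. Directions at 48 and 96 h therefore depend in part on the scaling, and values under equal totals are given beside the deposited ones.

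Most members were expressed at a low level. The mean FPKM over the 27 libraries ran from 0.554 to 24.0 in the GRAS family (median 2.7) and from 0.310 to 33.1 in the TCP family (median 3.43), beside a median of 2.85 over all tested genes. A mean of at least 10 was reached by 4 GRAS and 13 TCP genes, and a mean below 1 was found for 8 GRAS and 11 TCP genes. *B. napus* carries an A and a C subgenome, and 29 GRAS genes were placed on A, 34 on C, and 1 on neither, while 23 TCP genes were on A and 25 on C. Reads from near-identical A and C copies may have been split between the copies in the counting, so values of a single copy are uncertain in that respect. The 60 genes of both families below the filter comprised 33 GRAS genes, of which 6 had no read in any library, and 27 TCP genes, of which 5 had none. Just inside the filter, with exactly 3 libraries at FPKM 1 or more, were BnaC03g25370D, BnaC05g48480D, and BnaC07g46190D (mean FPKM 0.310, 0.435, and 0.662). Just outside, with 2 such libraries, were BnaA05g25420D, BnaC02g15480D, and BnaC03g03370D (0.368, 0.505, and 0.330). In leaf RNA, fewer cells that express a gene and less RNA per cell cannot be told apart.

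Fewer members of either family were called at 2 h than at 48 and 96 h, as was the case for all tested genes. More GRAS genes rose than fell at 48 and 96 h, as did more of all tested genes when the libraries were set to equal totals of reads. A gene was called up- or downregulated when its Benjamini-Hochberg adjusted p in limma, taken over all 46395 genes, was under 0.05 (two-sided, log2(FPKM + 1), 3 libraries against 3). The fold changes on this scale are smaller in size than the plain ratio for genes of low FPKM, and the p-values measure the spread between these plant samples. At 2 h after Hal treatment, 2 of the 64 GRAS genes were up and 2 were down, where 10.1% of all tested genes were up and 11.4% were down. At 48 h, 21 GRAS genes were up and 8 were down (all genes 23.3% and 25.1%). At 96 h, 30 were up and 11 were down (all genes 29.1% and 30.2%), and the median log2 fold change of the family was 0.39. With equal totals of reads 34 GRAS genes rose and 1 fell after Hal at 48 h (all genes 39.6% and 15.1%), and 46 rose and 1 fell at 96 h (all genes 51.6% and 16.1%). Rises also outnumbered falls among all genes with equal totals, and most of the GRAS falls were not called there. Without control 48 h replicate 2 the number of GRAS genes down at 48 h was 5. At 2 h, single libraries moved these small counts, which were 1 gene up without control 2 h replicate 2 or 3, Pic 2 h replicate 2, or Hal 48 h replicate 1, and 4 without Hal 2 h replicate 3. The genes down were 0 without control 2 h replicate 1 or 2 or Hal 2 h replicate 1, and 1 without control 2 h replicate 3.

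After Pic treatment, fewer GRAS genes were called at 48 and 96 h than after Hal, a difference in counts that was not itself tested. At 2 h, 9 GRAS genes were up and 4 were down (all genes 10.7% and 9.37%). At 48 h, 14 were up and 1 was down (all genes 13.9% and 17.9%), and at 96 h, 23 were up and 9 were down (all genes 22.2% and 26.4%). Under equal totals of reads, 22 rose and 1 fell at 48 h (all genes 22.5% and 10.9%), and 40 rose and 1 fell at 96 h (all genes 41.0% and 12.6%). The number up at 96 h was 14 without Pic 96 h replicate 1. The number down at 2 h was 2 without control 2 h replicate 1 or 2 or without Pic 2 h replicate 1 or 2. The single GRAS gene down at 48 h was joined by others when a library was left out, up to 3 genes without control 48 h replicate 1.

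TCP genes moved both ways, as did all tested genes. After Hal treatment, 3 of the 48 TCP genes were up and 4 were down at 2 h, 12 rose and 11 fell at 48 h, and 20 rose and 11 fell at 96 h. After Pic treatment, 6 rose and 4 fell at 2 h, 7 rose and 9 fell at 48 h, and 12 rose and 11 fell at 96 h. These counts are to be read against the same shares of all genes as above. Under equal totals more TCP genes were up than down at 48 h (21 against 8 after Hal, 14 against 3 after Pic) and at 96 h (29 against 5 and 22 against 6), as was the case for all genes under that scaling, with the shares given above. The number up after Hal at 48 h was 7 without control 48 h replicate 1, and the number down after Pic at 48 h was 5 without control 48 h replicate 3. At 2 h the number up after Hal was 1 without control 2 h replicate 1, the number down after Hal was 2 without Hal 2 h replicate 2, and the number down after Pic was 2 without control 2 h replicate 3.

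**Figure D1:**
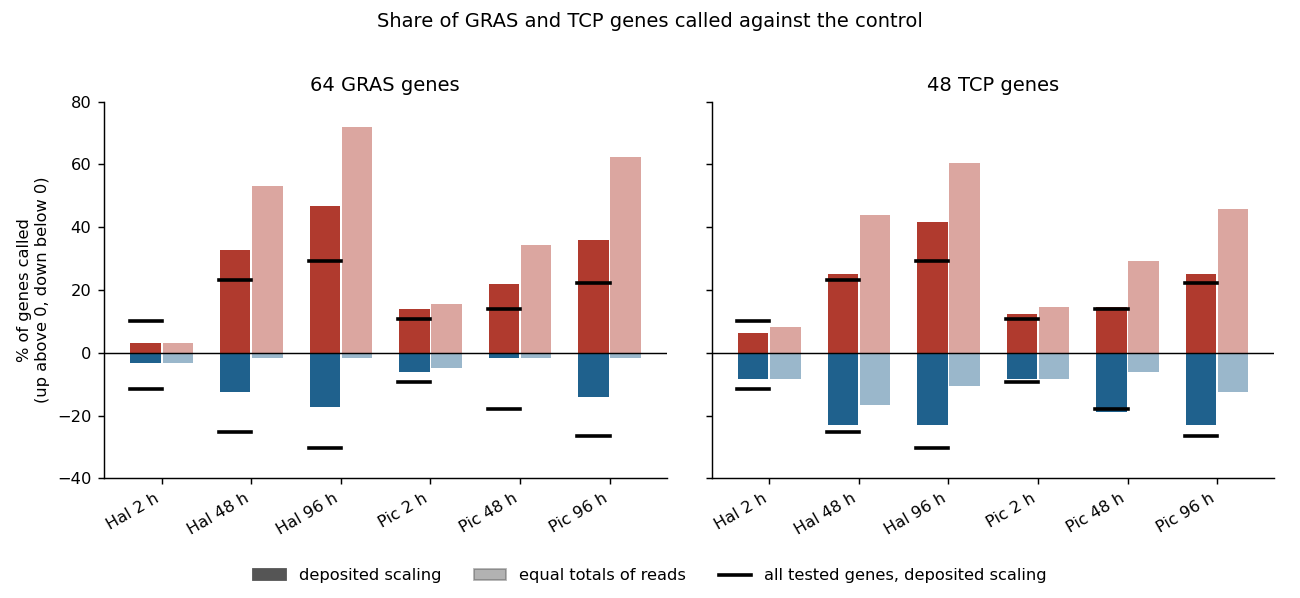
Percent of the 64 GRAS genes (left) and the 48 TCP genes (right) called against the control, for Hal and Pic at 2, 48, and 96 h. Bars above 0 are genes up and bars below 0 genes down, dark with the deposited scaling and pale with equal totals of reads. Black lines mark the shares of all tested genes with the deposited scaling only. The GRAS bar up at 96 h after Hal (30 of 64) lies above the line at 29.1%. With equal totals 1 GRAS gene is down at 48 and 96 h after each herbicide. The share of all tested genes down after Hal at 96 h was 30.2% as deposited and 16.1% with equal totals.

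After Hal at 48 h, 7 of the 8 GRAS falls were in genes of higher level, and genes of that level also fell more often in the whole table, in a split at a mean FPKM of 5 that was chosen after the values were seen. Of the 14 GRAS genes with a mean of at least 5, 3 were up and 7 down at 48 h, and 5 were up and 6 down at 96 h. Of the 50 GRAS genes with a lower mean, 18 were up and 1 was down at 48 h, and 25 were up and 5 down at 96 h. Of all tested genes with a mean of at least 5, 21.4% were up and 44.4% down at 48 h, and 22.2% and 53.5% at 96 h, and of those with a lower mean 24.3% and 15.2%, and 32.7% and 18.2%. Set to equal totals, the 14 GRAS genes showed 6 rises and 1 fall at 48 h and 11 rises and 0 falls at 96 h (limma, adjusted p under 0.05), so all but 1 of the falls of these genes rest on the deposited scaling. Under that scaling to equal totals, 39.0% of all tested genes with such a mean were up and 28.1% down at 48 h. At 96 h these shares were 45.1% and 31.0%. The group with the highest mean FPKM of a gene was Hal 96 h for 24 of the 64 GRAS genes (29 with equal totals), and the lowest was the control of 96 h for 19 (34 with equal totals). Among the 48 TCP genes, 14 were highest in Hal 96 h (25 with equal totals). Such counts were not made over all tested genes, so they are not read as a trait of the families. With equal totals 51.6% of all tested genes were called up after Hal at 96 h. The highest group mean exceeded the lowest by a median factor of 2.53 in the GRAS and 2.17 in the TCP family, as a description.

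**Figure D2:**
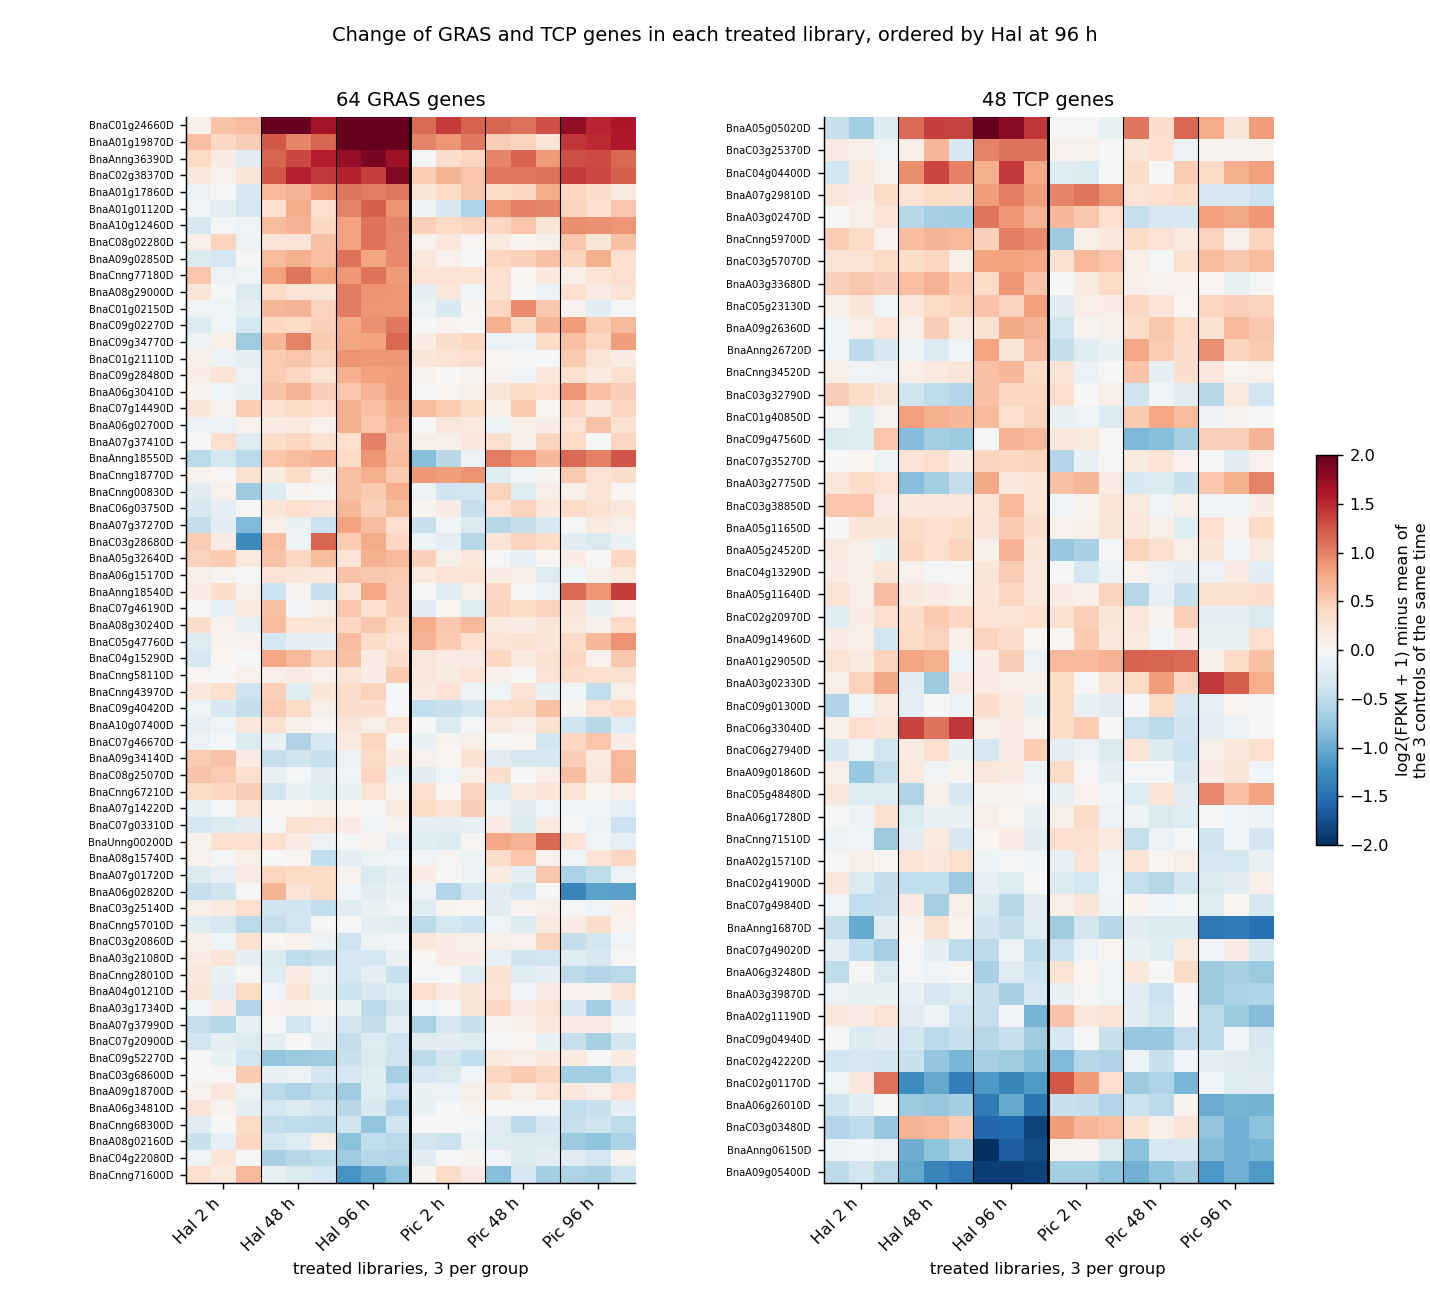
Each column is 1 of the 18 treated libraries (3 per group), each row a gene, 64 GRAS genes on the left and 48 TCP genes on the right, ordered by their change after Hal at 96 h. The color is log2(FPKM + 1) minus the mean of the 3 controls of the same harvest time, from -2 (blue) to 2 (red), with the deposited scaling. The upper rows of the GRAS panel are red from 48 h on after both herbicides, and the lowest rows of the TCP panel are blue at 96 h. Under equal totals of reads, 1 GRAS and 5 TCP genes were called down after Hal at 96 h.

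BnaC01g24660D showed the largest rise of the GRAS genes after Hal and after Pic at 96 h. It lies on chromosome C01, on the plus strand, from base 663089 to 664635 of its scaffold (the genome build is not given in the sources used here). At 2 h its FPKM was 2.99, 3.24, and 2.48 in the control libraries, 3.17, 4.78, and 4.97 after Hal, and 7.52, 9.29, and 7.81 after Pic. At 48 h it was 0.937, 2.35, and 2.69 in the control, 10.5, 11.2, and 8.12 after Hal, and 5.45, 5.21, and 6.06 after Pic. By 96 h it was at 1.68, 2.02, and 1.6 in the control, 15.2, 18.7, and 18.1 after Hal, and 8.46, 6.96, and 7.49 after Pic. All Pic libraries stood above all controls of their time from 2 h on, whereas the Hal libraries overlapped with the control at 2 h and stood above all other libraries at 48 and 96 h. After Hal, the log2 fold change was 0.43 at 2 h (SE 0.18, adjusted p = 0.0929, limma), 1.91 at 48 h (adjusted p = 3.42e-09), and 2.73 at 96 h (adjusted p = 2.86e-12). After Pic it was 1.24, 1.19, and 1.64 at the 3 times (adjusted p = 1.35e-05, 1.41e-05, and 7.02e-08). Hal was below Pic by 0.81 at 2 h (adjusted p = 0.00200) and above it by 1.09 at 96 h (adjusted p = 2.30e-05), so the order of the herbicides turned between 2 and 96 h. With equal totals the Hal values at 48 and 96 h were 2.19 and 3.22, and the Pic values 1.32 and 1.95.

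BnaA01g19870D was the only GRAS gene called in all 6 comparisons with the control, each time upregulated. It lies on chromosome A01, plus strand, bases 250419 to 252405 of its scaffold. The FPKM in the controls was 2.54, 2.51, and 1.68 at 2 h, 1.84, 2.59, and 2.92 at 48 h, and 1.31, 0.864, and 1.45 at 96 h. After Hal it was 3.90, 3.29, and 3.51 at 2 h, 7.03, 5.75, and 6.67 at 48 h, and 10.2, 10.3, and 9.70 at 96 h. After Pic it was 5.37, 4.94, and 5.67 at 2 h, 3.81, 3.66, and 3.12 at 48 h, and 4.90, 5.18, and 5.66 at 96 h. No treated library overlapped with a control of the same time, and Hal climbed with time while Pic was lowest at 48 h. The log2 fold changes after Hal were 0.50, 1.13, and 2.34 (SE 0.13, adjusted p in limma 0.0076, 1.36e-07, and 1.56e-13) and after Pic 0.97, 0.40, and 1.51 (adjusted p = 5.12e-06, 0.0218, and 1.82e-09). Equal totals gave 1.42 and 2.78 after Hal, and 0.55 and 1.78 after Pic, at 48 and 96 h. The call at 2 h after Hal did not hold without control 2 h replicate 3 (0.37, adjusted p = 0.0708). As for BnaC01g24660D, Hal was below Pic at 2 h (-0.47, adjusted p = 0.0122) and above it at 96 h (0.83, adjusted p = 1.40e-05).

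BnaC02g38370D, on C02, was raised by both herbicides at 48 and 96 h. Its FPKM at 48 h was 3.25, 2.66, and 2.71 in the control, 8.15, 10.2, and 9.31 after Hal, and 7.05, 7.04, and 7.18 after Pic. Its FPKM at 96 h was 2.32, 1.70, and 2.04 in the control, 7.73, 6.79, and 9.84 after Hal, and 6.92, 6.54, and 5.86 after Pic. The treated libraries were all above the controls at both times. The log2 fold change was 1.40 at 48 h and 1.59 at 96 h after Hal, and 0.58, 1.07, and 1.30 at 2, 48, and 96 h after Pic (adjusted p from limma at most 0.000712). BnaAnng36390D, on an unplaced part of the A subgenome and chosen after its values were seen, also rose after both. Its mean FPKM at 96 h was 1.01 ± 0.120 in the control, 5.90 ± 0.470 after Hal, and 3.78 ± 0.270 after Pic (SD, n = 3), with log2 fold changes of 1.78 and 1.25 (limma, adjusted p = 5.17e-10 and 4.80e-07). Equal totals gave 1.70 and 2.07 after Hal and 1.22 and 1.62 after Pic at 48 and 96 h for BnaC02g38370D, and 2.20 and 1.5 at 96 h for BnaAnng36390D.

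**Figure D3:**
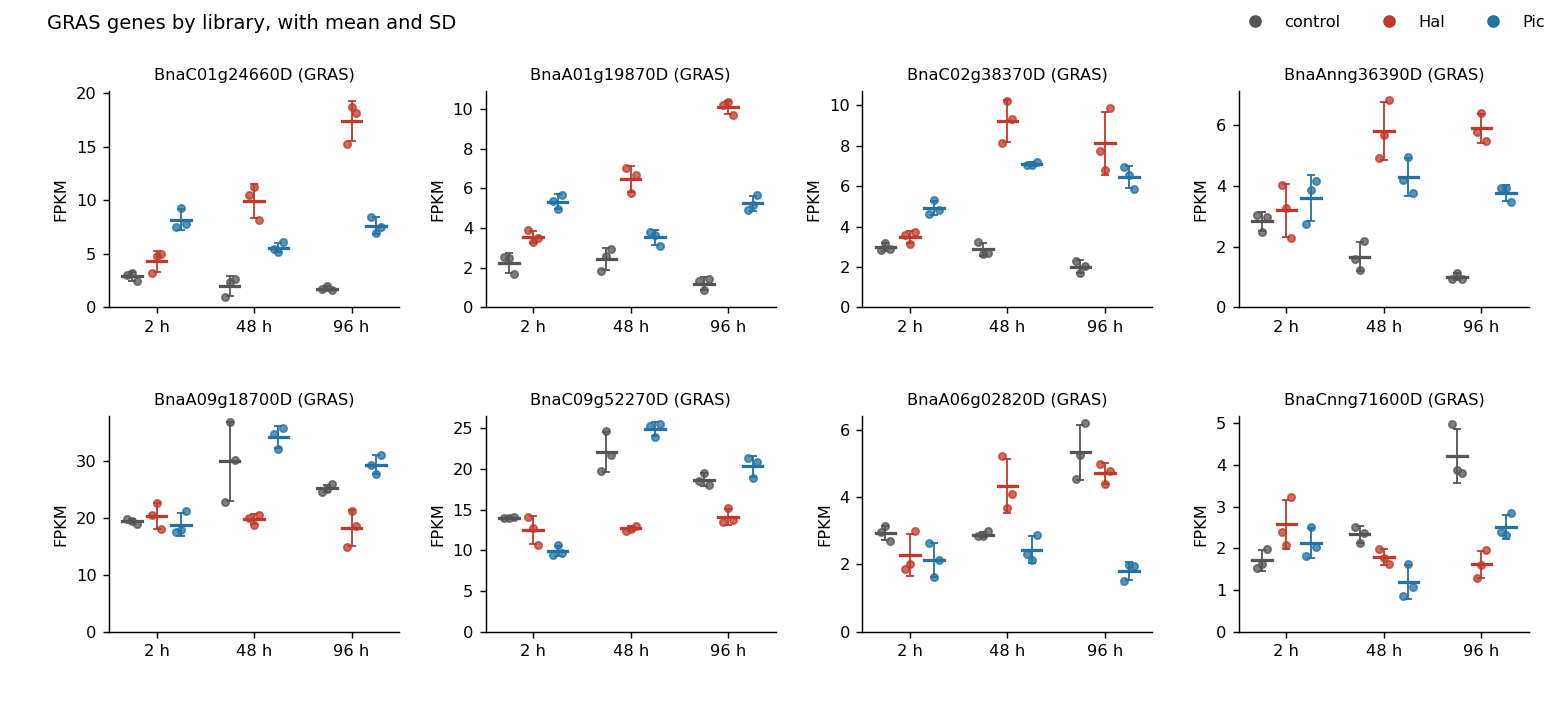
FPKM of 8 GRAS genes in all 27 libraries, by harvest time (x axis) and treatment (color), with the deposited scaling. Points are libraries, horizontal bars the means of 3 libraries, and error bars the SD. BnaC01g24660D reached 15.2 to 18.7 in the Hal libraries of 96 h beside 1.6 to 2.02 in the controls, and BnaA06g02820D was at 1.51 to 2.00 after Pic at 96 h. Both changes were called with equal totals of reads too, while the falls of BnaA09g18700D after Hal were not, and that of BnaC09g52270D at 96 h turned.

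The 3 GRAS genes of highest level were lower after Hal than in the control at 96 h with the deposited scaling, and none of these falls was called with equal totals of reads. BnaA09g18700D, on A09, had the highest mean of the family (24.0). At 48 h it had an FPKM of 22.9, 36.8, and 30.2 in the control, 20.1, 18.8, and 20.5 after Hal, and 34.8, 32.1, and 35.8 after Pic. Its FPKM at 96 h was 24.6, 25, and 26 in the control, 14.9, 21.2, and 18.7 after Hal, and 29.3, 27.8, and 31.1 after Pic. The Hal libraries lay below both other groups without overlap. Hal was below Pic by 0.76 on the log2 scale at 48 h and by 0.67 at 96 h (limma, adjusted p = 4.32e-05 and 0.000128), and these differences stood with equal totals (-0.60 and -0.50, adjusted p = 0.000387 and 0.00148). Against the control, the change after Hal at 96 h was -0.46 (adjusted p = 0.00356) with the deposited scaling and 0.16 (adjusted p = 0.238) with equal totals.

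BnaA06g34810D and BnaC07g20900D, next in level (mean FPKM 23.5 and 16.9), were lower after both herbicides at 96 h with the deposited scaling. BnaA06g34810D had 31.5, 32.3, and 32.5 in the controls of 96 h, 21.5, 25.9, and 21.1 after Hal, and 22.5, 23.3, and 28 after Pic (log2 fold changes -0.48 and -0.38, adjusted p in limma 0.000599 and 0.00653). BnaC07g20900D had 22.7, 24.9, and 24.4 in the control, 17, 20, and 17.8 after Hal, and 17.1, 14.8, and 18.5 after Pic (-0.38 and -0.50, adjusted p = 0.00167 and 0.000170). The controls of 96 h stood above the treated libraries in both genes. With equal totals these values were 0.14 and 0.07 for BnaA06g34810D and 0.24 and -0.05 for BnaC07g20900D, and of them only the 0.24 was called (adjusted p = 0.0232), in the opposite direction. The fall of BnaC07g20900D at 2 h after Hal (-0.28, adjusted p = 0.0391) did not hold without any 1 of 5 libraries (control replicates 1, 2, and 3 and Hal replicates 1 and 3 of 2 h), where the adjusted p was between 0.0644 and 0.157.

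BnaC09g52270D, on C09, separated the herbicides at 48 h. It had an FPKM of 19.8, 24.7, and 21.7 in the control, 12.4, 12.7, and 13.1 after Hal, and 25.3, 23.9, and 25.5 after Pic at that time. The Hal libraries lay in a narrow range below all others, and Hal was below Pic by 0.92 (SE 0.09, adjusted p = 2.41e-08 in limma, -0.76 with equal totals). Against the control it fell by 0.75 after Hal at 48 h (adjusted p = 3.03e-07), also with equal totals (-0.38, adjusted p = 0.00157), and by 0.46 after Pic at 2 h (adjusted p = 0.000597). At 96 h the Hal value was -0.38 with the deposited scaling and 0.23 with equal totals, both called (adjusted p = 0.000945 and 0.0356), so its direction depends on the scaling.

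BnaCnng71600D had the largest fall of the GRAS genes after Hal at 96 h, beside controls that rose. Its FPKM in the controls was 1.53, 1.62, and 1.99 at 2 h, 2.51, 2.12, and 2.36 at 48 h, and 4.97, 3.86, and 3.82 at 96 h. After Hal at 96 h it was 1.29, 1.59, and 1.96, and after Pic 2.39, 2.31, and 2.84. The treated libraries of 96 h were in or near the range of the earlier controls, and below all controls of the same time. The log2 fold change was -1.0 after Hal (SE 0.15, adjusted p = 2.46e-06, limma) and -0.57 after Pic (adjusted p = 0.00255), and with equal totals -0.53 (adjusted p = 0.00352) and -0.20 (adjusted p = 0.265). At 48 h it was the only GRAS gene called down after Pic (-0.62, adjusted p = 0.00186, and -0.46 with equal totals).

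BnaA06g02820D, on A06, was the GRAS gene with the largest fall after Pic at 96 h, when the change after Hal was -0.14 (adjusted p = 0.410 in limma), or 0.40 with equal totals (adjusted p = 0.0151). Its FPKM at 96 h was 4.55, 5.25, and 6.19 in the control, 4.97, 4.38, and 4.77 after Hal, and 1.51, 2.00, and 1.95 after Pic. The 3 Pic libraries were lower than all others of that time, while Hal and control overlapped. The change after Pic was -1.16 (SE 0.14, adjusted p = 4.66e-07, limma) and -0.79 with equal totals (adjusted p = 4.85e-05), and Hal was above Pic by 1.02 (adjusted p = 2.68e-06). At 48 h Hal raised it (3.67 to 5.22, against 2.84 to 2.99 in the control, log2 fold change 0.44, adjusted p = 0.0138, and 0.74 with equal totals). BnaA06g02700D, the next GRAS gene on the same scaffold at a distance of 51447 bases and named for that position, rose at 96 h after Hal (0.66, adjusted p = 4.12e-05) and after Pic (0.38, adjusted p = 0.0101), and with equal totals as well (1.23 and 0.78).

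A few further GRAS genes were named by size of change. BnaA08g02160D was at 6.16, 6.49, and 8.42 in the controls of 96 h, at 3.53, 4.67, and 4.46 after Hal, and at 3.81, 3.58, and 4.16 after Pic (log2 fold changes -0.62 and -0.72, adjusted p in limma 0.00687 and 0.00287). With equal totals neither was called (-0.07 and -0.32, adjusted p = 0.762 and 0.160). BnaC04g22080D was lower after Hal at 48 h (-0.57, adjusted p = 0.00395) and 96 h (-0.62, adjusted p = 0.00138), again not with equal totals (-0.22 and -0.05). Its call at 48 h did not hold without control 48 h replicate 2 (adjusted p = 0.0503), a library at 16.2 beside 8.49 and 9.61 in the other controls. At 2 h, BnaA07g37990D fell from 1.90, 1.85, and 1.63 to 1.03, 0.872, and 1.49 after Hal and to 0.808, 1.22, and 1.04 after Pic (-0.40 and -0.47, adjusted p = 0.0358 and 0.0146). Its Hal call was lost without control replicate 1, 2, or 3 or Hal replicate 1 or 2 of that time, and its Pic call without control replicate 1 or Pic replicate 1 (adjusted p between 0.0513 and 0.160). BnaC08g25070D was raised by Hal at 2 h (7.64, 7.35, and 6.31 against 4.81, 4.68, and 5.04, adjusted p = 0.0436), a call that was lost without any 1 of 7 libraries, namely control replicates 1, 2, and 3, Hal replicates 1 and 2, and Pic replicate 2 of 2 h, and Hal 48 h replicate 1 (adjusted p between 0.0502 and 0.130).

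Among the GRAS genes were a tandem pair and 2 genes with a name, all chosen after their values were seen. BnaAnng18540D and BnaAnng18550D lie 1902 bases apart on the same strand, and both rose by 1.13 after Pic at 96 h (limma, adjusted p = 0.000251 and 0.000485). At that time BnaAnng18540D was at 7.06, 5.81, and 8.71 after Pic against 2.66, 3.33, and 2.18 in the control, and BnaAnng18550D at 5.37, 4.86, and 5.97 against 1.36, 2.47, and 2.03. The Pic libraries were above all controls in both genes. After Hal only BnaAnng18550D passed the test (0.63, adjusted p = 0.0286, beside 0.51, adjusted p = 0.0573 for its neighbour), and the difference between the genes was not tested. With equal totals both genes were called after Hal (1.00 and 1.08) and after Pic (1.48 and 1.45) at 96 h. BnaCnng00830D, annotated as Scarecrow-like protein 21, whose Arabidopsis relative acts in light signalling, was at 0.183, 0.225, and 0.249 in the control of 96 h and at 0.829, 0.744, and 1.02 after Hal (log2 fold change 0.61, adjusted p = 0.00581, and 0.81 with equal totals). BnaC07g46190D, annotated as a SCARECROW-like protein, was at 1.31, 0.964, and 1.22 after Hal at 96 h against 0.466, 0.431, and 0.844 in the control. All 3 libraries through which it passed the level filter are Hal libraries, 2 of them of 96 h, so no test is given for it. The family counts still include it among the 64 GRAS genes.

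BnaA09g05400D was the only TCP gene called in all 6 comparisons with the control, each time downregulated, and with equal totals of reads as well. It lies on chromosome A09, plus strand, bases 631772 to 633632 of its scaffold. The FPKM in the controls was steady at 2 and 48 h, with 16.8, 17.1, and 16.5 and then 17.8, 17.3, and 17.5, and was 19.7, 19.1, and 24.9 at 96 h. After Hal it was 11.4, 12.7, and 11.3 at 2 h, 8.09, 6.41, and 5.91 at 48 h, and 5.01, 5.00, and 5.09 at 96 h. After Pic it was 10.1, 10.1, and 9.18 at 2 h, 8.52, 9.57, and 10.8 at 48 h, and 8.93, 10.4, and 9.07 at 96 h. Every treated library was below every control of its time, Hal declined with time, and Pic stayed at the level reached at 2 h. The log2 fold changes after Hal were -0.48, -1.26, and -1.87 (SE 0.11, adjusted p in limma 0.00206, 5.55e-10, and 1.88e-13) and after Pic -0.72, -0.81, and -1.08 (adjusted p = 1.65e-05, 2.13e-06, and 1.36e-08). With equal totals the Hal values were -0.46, -0.90, and -1.28. As deposited, the change from 2 to 96 h was called for Hal (-1.40, adjusted p = 4.18e-08) and not for Pic (-0.36, adjusted p = 0.0738). Whether the Hal and Pic changes differ from each other was not tested.

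BnaAnng06150D was the TCP gene with the next largest fall after Hal at 96 h. Its FPKM at 96 h was 14.3, 15.5, and 18.7 in the control, 3.27, 4.45, and 3.96 after Hal, and 8.34, 7.74, and 8.06 after Pic. The 3 groups did not overlap, with Hal lowest and Pic between. The log2 fold change was -1.81 after Hal (SE 0.17, adjusted p = 1.62e-09, limma) and -0.92 after Pic (adjusted p = 8.93e-05), and -1.24 and -0.48 with equal totals, both called. At 2 h neither herbicide gave a call (-0.09 and -0.05, adjusted p = 0.754 and 0.887).

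BnaC02g01170D is the only tested TCP gene with a name, Transcription factor TCP21, a protein that in Arabidopsis acts on the circadian clock. At 2 h its FPKM spread widely, with 2.36, 3.70, and 2.39 in the control, 2.55, 3.43, and 7.08 after Hal, and 7.96, 5.78, and 3.78 after Pic. At 48 h it was 4.23, 5.36, and 5.93 in the control, 1.57, 2.00, and 1.37 after Hal, and 2.69, 3.01, and 2.27 after Pic. At 96 h it was 3.14, 3.19, and 3.12 in the control, 0.873, 0.656, and 0.895 after Hal, and 2.91, 2.47, and 2.59 after Pic. Hal was below both other groups at 96 h. The changes after Hal were -1.22 at 48 h and -1.20 at 96 h (limma, adjusted p = 7.63e-05 and 6.07e-05), and -0.92 and -0.80 with equal totals, still called. Pic raised it at 2 h (0.81, adjusted p = 0.0103), a call lost without Pic 2 h replicate 1 or control 2 h replicate 1 or 3 (adjusted p between 0.0501 and 0.0846), and lowered it at 48 h (-0.75, adjusted p = 0.0116, with equal totals -0.56, adjusted p = 0.0507).

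BnaA05g05020D was the TCP gene with the largest rise after Hal at 96 h. Its FPKM was 1.61, 1.52, and 1.74 in the control of 2 h and 0.918, 0.615, and 1.18 after Hal at that time (log2 fold change -0.47, adjusted p = 0.0725, limma). At 48 h it was 0.988, 1.04, and 1.08 in the control, 3.47, 4.27, and 4.21 after Hal, and 3.25, 1.61, and 3.53 after Pic. At 96 h it was 0.836, 1.19, and 0.696 in the control, 6.62, 5.61, and 4.13 after Hal, and 2.16, 1.25, and 2.39 after Pic. Both herbicides were above the controls from 48 h on, and Hal was above Pic at 96 h without overlap. The log2 fold changes at 48 and 96 h were 1.29 and 1.75 after Hal (adjusted p = 3.09e-06 and 1.58e-08) and 0.86 and 0.61 after Pic (adjusted p = 0.000829 and 0.00919), and Hal was above Pic by 1.14 at 96 h (adjusted p = 1.81e-05). Equal totals gave 1.52 and 2.15 after Hal and 0.96 and 0.83 after Pic at 48 and 96 h, all called.

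Some TCP genes of low level differed from the control of the same time. BnaC03g25370D was at FPKM 1.14, 1.30, and 1.30 in the Hal libraries of 96 h and at 0, 0, and 0.257 in the controls, and these Hal libraries are the only 3 in which it reached 1. It therefore passed the filter only through the group where it is high, so no test is given for it. Its call is still among the 20 TCP genes counted as up after Hal at 96 h. It had 69 reads in the 3 Hal and 3 reads in the 3 control libraries of 96 h. BnaA01g29050D was at 1.54, 1.51, and 1.45 after Pic at 48 h and at 0, 0.322, and 0.0733 in the control (1.16 under both scalings, adjusted p = 4.65e-05 in limma as deposited). That control group had its lowest mean of the 9 groups (0.132), and Pic at 2 h had its highest (1.71). BnaA03g02330D was at 2.44, 2.01, and 1.14 after Pic at 96 h against 0.149, 0.551, and 0.228 in the control (1.11, adjusted p = 0.000128, and 1.25 with equal totals), and Hal gave 0.460, 0.431, and 0.400. BnaC05g48480D, chosen after its values were seen, was at 0.971, 0.547, and 0.784 after Pic at 96 h and at 0.0487, 0, and 0 in the control. Its lowest group mean was that control, and its highest was the control of 48 h (0.978). At 96 h it had 63 reads against 1 read, a ratio of 48.5 (95% counting interval 8.39 to 1944, exact Clopper-Pearson, counting error only). Its fitted change (0.79, adjusted p = 0.000685 in limma, and 0.84 with equal totals) is no bound. All 4 genes had a mean FPKM below 1.

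**Figure D4:**
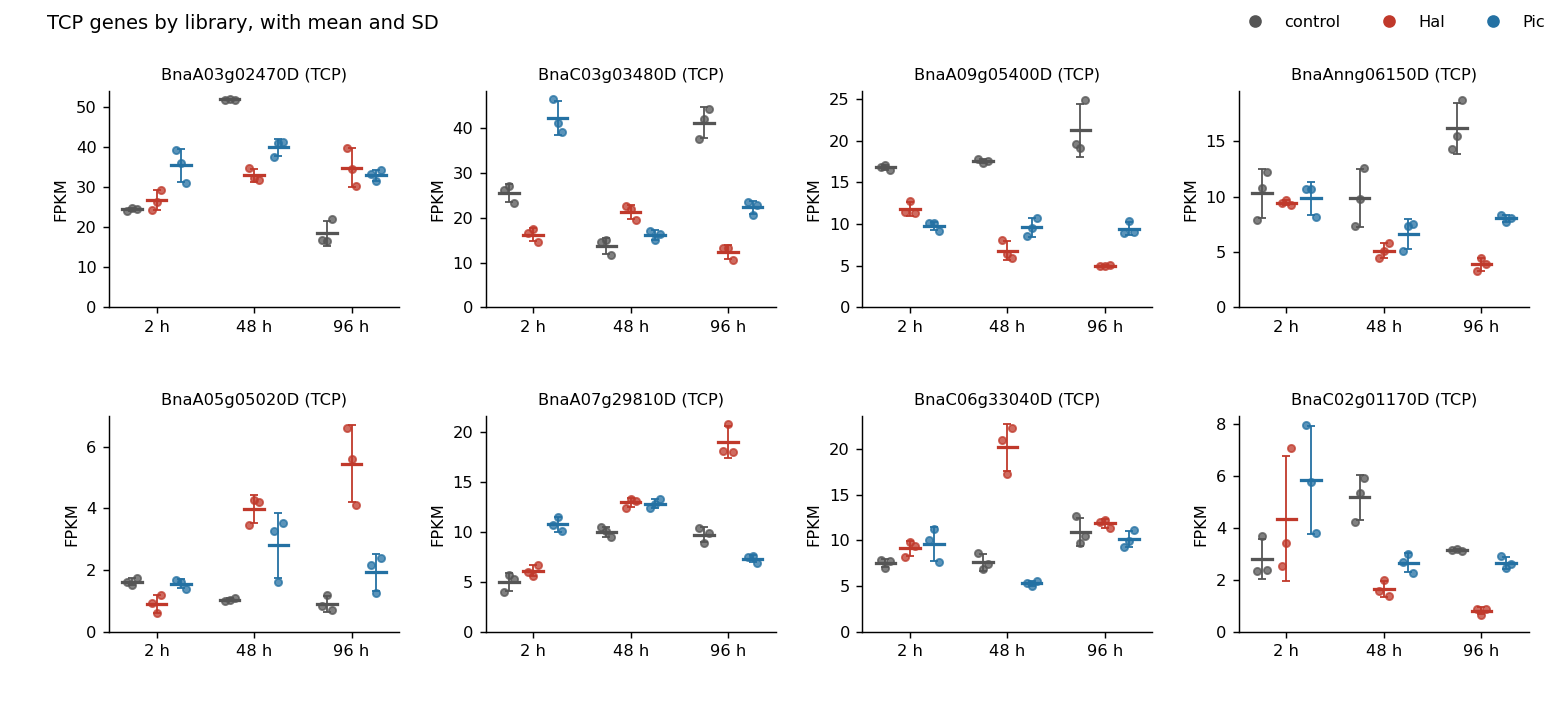
FPKM of 8 TCP genes in all 27 libraries, by harvest time (x axis) and treatment (color), with the deposited scaling. Points are libraries, horizontal bars the means of 3 libraries, and error bars the SD. BnaA09g05400D was at 5.00 to 5.09 in the Hal libraries of 96 h against 19.1 to 24.9 in the controls, and BnaC06g33040D was at 17.3 to 22.2 in the Hal libraries of 48 h. The directions of both changes against the control also hold with equal totals of reads.

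BnaC03g03480D, on C03, changed direction with time after both herbicides. At 2 h it had an FPKM of 26.2, 27.1, and 23.3 in the control, 16.6, 17.5, and 14.6 after Hal, and 46.4, 41.2, and 39.1 after Pic. At 48 h it had 14.5, 15.0, and 11.6 in the control, 22.5, 22, and 19.6 after Hal, and 17.1, 15.1, and 16.3 after Pic. At 96 h it had 37.4, 42, and 44.1 in the control, 13.2, 13.3, and 10.7 after Hal, and 23.4, 20.6, and 22.9 after Pic. Within 2 h the groups thus stood apart with Hal lowest and Pic highest, and at 96 h both were below the control. The log2 fold changes after Hal were -0.62, 0.61, and -1.66 (SE 0.11, adjusted p in limma 0.000134, 4.75e-05, and 2.03e-12) and after Pic 0.70, 0.23, and -0.86 (adjusted p = 2.59e-05, 0.110, and 5.49e-07). All 5 calls kept their direction with equal totals, which gave 0.97 and -1.04 after Hal at 48 and 96 h and -0.40 after Pic at 96 h. The controls themselves fell by 0.86 from 2 to 48 h and rose by 1.52 from 48 to 96 h (adjusted p = 1.26e-06 and 1.19e-10).

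BnaA07g29810D and BnaC06g33040D answered the herbicides at different times. BnaA07g29810D, on A07, had an FPKM of 3.95, 5.72, and 5.34 in the control of 2 h, 6.0, 5.60, and 6.69 after Hal, and 10.7, 11.5, and 10.1 after Pic. At 96 h it had 10.4, 8.94, and 9.86 in the control, 18.2, 20.8, and 18 after Hal, and 7.51, 7.57, and 6.94 after Pic. Pic was thus high at 2 h and low at 96 h, while Hal was high at 96 h. The change after Pic was 0.98 at 2 h and -0.36 at 96 h (SE 0.10, adjusted p in limma 8.69e-08 and 0.00478), the latter not with equal totals (0.05, adjusted p = 0.672), and that after Hal was 0.90 at 96 h (adjusted p = 4.61e-08, and 1.49 with equal totals). BnaC06g33040D, on C06, was at 21.0, 17.3, and 22.2 after Hal at 48 h, at 8.65, 6.84, and 7.36 in the control, and at 5.35, 5.00, and 5.51 after Pic (1.29 and -0.45, adjusted p = 4.14e-09 and 0.0065, and with equal totals 1.65 and -0.25, the latter not called). At 2 and 96 h no call was made for it with the deposited scaling, while with equal totals it was up at 96 h (0.71 and 0.33).

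Of the 3 TCP genes of highest level, BnaC03g03480D is described above, and the others were BnaA03g02470D and BnaA06g17280D. BnaA03g02470D, the most abundant member (mean FPKM 33.1), lies 58402 bases from BnaA03g02330D on A03. Its FPKM in the controls was 24.0, 24.9, and 24.6 at 2 h, 51.9, 52.2, and 51.8 at 48 h, and 17, 16.5, and 22 at 96 h. After Hal it was 24.4, 26.4, and 29.4, then 34.8, 32.4, and 31.9, and then 39.8, 34.7, and 30.3 at the 3 times, and after Pic it was 39.2, 36, and 31.2, then 37.5, 41.1, and 41.4, and then 33.3, 31.5, and 34.3. The controls rose and fell back, whereas the treated leaves stayed between 24.4 and 41.4. The changes at 48 h were -0.64 after Hal and -0.37 after Pic, and at 96 h 0.88 and 0.81 (limma, adjusted p at most 0.00798), and with equal totals -0.26, -0.15 (not called, adjusted p = 0.224), 1.5, and 1.26. BnaA06g17280D (mean FPKM 17.7) was called against the control in none of the 6 comparisons with the deposited scaling, with log2 fold changes between -0.22 and 0.12, and with equal totals it was called up at 96 h (0.63 and 0.38).

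Further TCP genes were named at 2 h or after Pic. BnaA03g33680D rose after Hal at all 3 times (0.50, 0.61, and 0.62, adjusted p in limma 0.00517, 0.000312, and 0.000170) and was not called after Pic (0.19, 0.09, and -0.04). With equal totals it rose after Hal as well (0.53, 0.97, and 1.22), and the Pic value of 96 h was called (0.38, adjusted p = 0.0138). It was at 12.1, 12.8, and 12.3 after Hal at 2 h against 7.92, 8.72, and 8.73 in the control, and Hal was above Pic at 48 and 96 h (0.52 and 0.67, adjusted p = 0.00237 and 0.000121). BnaC03g38850D also rose after Hal at 2 h (0.42, adjusted p = 0.0485), a call close to the threshold that was lost without single libraries of any time (adjusted p up to 0.165). BnaC02g42220D fell at 2 h from 9.99, 8.95, and 8.78 to 4.57, 5.87, and 5.74 after Pic (-0.68, adjusted p = 0.000127) and to 6.84, 7.11, and 6.92 after Hal (-0.36, adjusted p = 0.0302). BnaAnng16870D fell after Pic at 96 h from 8.02, 7.16, and 9.01 to 2.35, 2.42, and 2.21 (-1.44, adjusted p = 3.73e-08, -1.05 with equal totals), and Hal at 5.87, 5.47, and 6.66 was above Pic by 1.07 (adjusted p = 2.82e-06). At 2 h it fell after Hal as well (-0.56, adjusted p = 0.0092), though not without control 2 h replicate 3 or Hal 2 h replicate 2 (adjusted p = 0.0555 and 0.0958). BnaC09g47560D fell at 48 h after Hal and Pic (-0.77 and -0.80, adjusted p = 0.00174 and 0.00199) and rose at 96 h (0.44 and 0.55, adjusted p = 0.0490 and 0.0204), around controls that went from 5.52 ± 0.561 to 2.51 ± 0.734 (SD, n = 3), and with equal totals the values were -0.45 and -0.61, and 0.91 and 0.88, all called.

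Hal and Pic were compared at each time, with the amounts unequal as stated. At 2 h, 3 GRAS genes were higher and 8 lower after Hal than after Pic (all genes 9.04% and 11.2%), with 1 TCP gene higher and 4 lower. At 48 h, 9 GRAS genes were higher and 8 lower (all genes 14.6% and 16.8%), with 6 TCP genes each way. At 96 h, 18 GRAS genes were higher and 8 lower (all genes 23.0% and 22%), with 12 TCP genes higher and 7 lower. The total at 2 h, 16 members, was 10 without Pic 2 h replicate 1 or 2. With equal totals the GRAS counts were 3 and 11 at 2 h (all genes 9.14% and 12.2%), 16 and 4 at 48 h (21.0% and 12.1%), and 30 and 3 at 96 h (31.8% and 18%), and the TCP counts were 0 and 4, 11 and 5, and 19 and 7.

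The change of the response between harvest times was tested for each gene. From 2 to 96 h the Hal response rose in 25 GRAS genes and fell in 6, and it rose in 10 and fell in 6 TCP genes (all genes 22.1% and 24.2%). The Pic response rose in 13 and fell in 3 GRAS genes, and it rose in 5 and fell in 9 TCP genes (all genes 13.4% and 19.3%). With equal totals the Hal counts were 41 and 1 for GRAS and 27 and 5 for TCP genes, and the Pic counts 23 and 0, and 15 and 3, where 42.5% of all genes rose and 13.6% fell in the Hal response, and 27% and 9.74% in the Pic response. Between 2 and 48 h, in comparisons added after the values were seen, the Hal response changed in 42 of the 112 members (all genes 37.1%) and the Pic response in 28 (all genes 23.0%). Between 48 and 96 h, added likewise, the Hal response changed in 22 of the 112 members (all genes 25.9%) and the Pic response in 25 (all genes 28.1%). The Hal response of BnaC03g03480D changed by -2.27 (-2.01 with equal totals) and that of BnaA03g02470D by 1.52 (1.76).

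**Figure D5:**
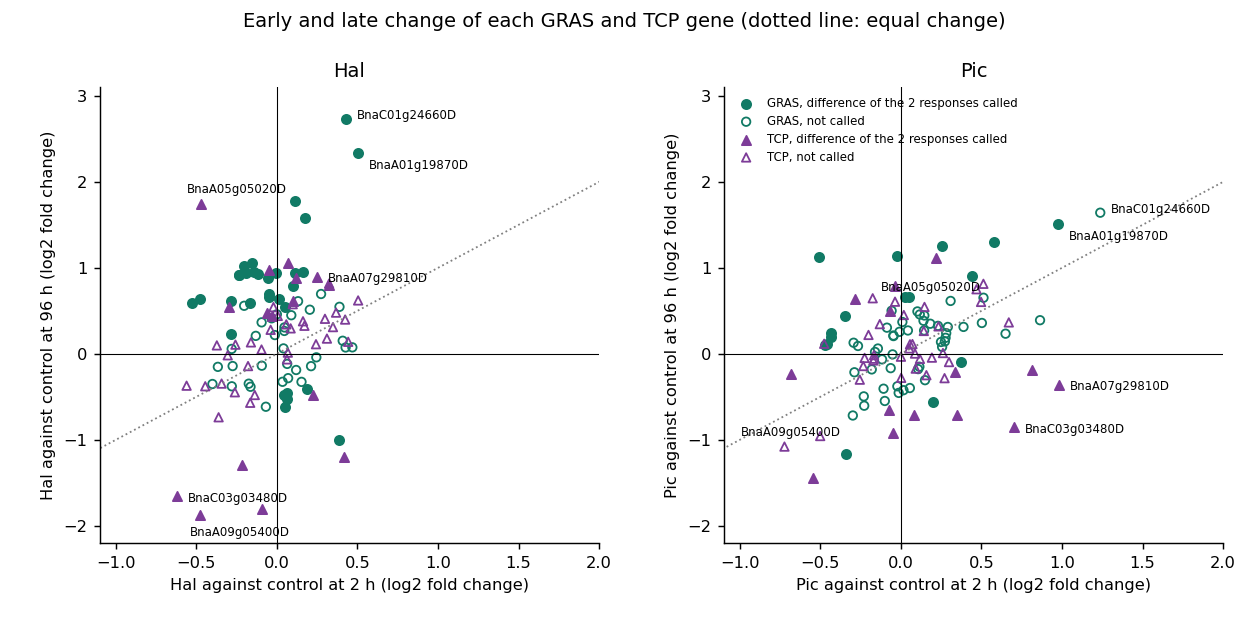
Log2 fold change against the control at 2 h (x axis) and 96 h (y axis) for Hal (left) and Pic (right), with the deposited scaling. Circles are the 64 GRAS and triangles the 48 TCP genes, filled where the difference of the 2 responses was called, and the dotted line marks equal change. BnaC01g24660D is at 0.43 and 2.73 after Hal and at 1.24 and 1.64 after Pic, and BnaC03g03480D lies below 0 at both times after Hal and crosses from 0.70 to -0.86 after Pic. With equal totals of reads the Pic value of 96 h is -0.40, and its direction stays.

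The control leaves also differed between harvest times. In them, 14 GRAS genes were higher and 2 lower at 48 h than at 2 h, and 11 TCP genes were higher and 3 lower. Of all genes 30.4% were called in either direction, 16.9% up and 13.5% down. From 48 to 96 h, 4 GRAS genes rose and 10 fell, and 7 TCP genes rose and 7 fell (all genes 29.8%, 17.5% up and 12.3% down). With equal totals of reads the counts from 2 to 48 h were 6 and 7 for the GRAS and 3 and 9 for the TCP genes (all genes 7.87% up and 31.1% down), so the excess of rises in the first interval rests on the deposited scaling. From 48 to 96 h they were 3 and 12 for the GRAS and 5 and 9 for the TCP genes (all genes 12.3% and 13.9%).

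Other families linked to leaf growth are given for comparison, with counts as a description. SBP domain genes, which in Arabidopsis set the change from juvenile to adult leaves, had 41 tested members, of which 17 were up and 6 down after Hal at 96 h, and 15 up and 3 down after Pic (24 and 2, and 21 and 3 with equal totals). YABBY genes, which mark the lower side of the leaf, had 13 tested members with 3 up and 5 down after Hal, and 1 up and 4 down after Pic at 96 h (6 and 3, and 4 and 0 with equal totals). Of 98 tested genes described as cyclins or histones, 9 were up and 74 down after Hal at 96 h, and 14 up and 52 down after Pic, with median log2 fold changes of -1.02 and -0.43. With equal totals they were 19 up and 51 down after Hal, and 22 up and 18 down after Pic, with medians of -0.46 and 0.0060. For comparison, 29.1% of all genes were up and 30.2% down after Hal at 96 h, and 22.2% and 26.4% after Pic, with the deposited scaling, and 51.6% and 16.1%, and 41.0% and 12.6%, with equal totals. The summed FPKM of cyclin and histone genes was 2200 to 2377 in the Hal libraries of 96 h and 3433 to 4087 in the controls, and that of the mesophyll genes 98665 to 107691 and 168247 to 189997. With equal totals the cyclin and histone sums overlapped (2706 to 2946 against 2773 to 3068), and the mesophyll sums were 122990 to 129201 against 135911 to 142627. Their part in the changes of the GRAS and TCP genes was not tested. Of 4 genes described with gibberellin words, 1 was tested, and it was down after Hal at 96 h (-1.97, and -1.33 with equal totals). The whole words GRF, BES1, and ARF matched 0 genes in the domain column. Genes of these families that the column lists under other words were not looked for. Of the 16287 other tested genes with a domain, 35.6% were up and 25.7% down after Hal at 96 h (60.1% and 12.5% with equal totals).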

How the data were processed

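Total RNA of treated leaves was sequenced in 27 libraries (9 groups of 3). The authors deposited 1 table of FPKM per gene and library. The labels name CASAVA, HISAT2, and StringTie among other tools, without versions, and the genome build and strand setting are not given in the sources used here. Its annotation columns supplied the domain words. Reads worked back from FPKM and gene length were whole numbers in 100% of values (tolerance 0.01).

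The members and lists were chosen with earlier results of these data known. Genes with FPKM of at least 1 in at least 3 libraries were fitted together in limma 3.58.1 (R 4.3.3) on log2(FPKM + 1), with 1 coefficient per group and an intensity trend, after the code had been tested on simulated data, and p-values were adjusted by Benjamini-Hochberg within each contrast (threshold 0.05). The median SE of a member's log2 fold change was 0.15. Named genes were, per family and herbicide contrast with groups that did not overlap, the 2 largest rises and the 2 largest falls among called members, the largest Hal against Pic difference per time, the 3 highest means, and any member called in all 6 contrasts, and others are marked. Alternatives were a pseudocount of 0.1, no filter, a filter at FPKM 5, equal totals of reads, voom on the reads, only the groups compared, a replicate block, and leaving out each library. Figures were drawn with matplotlib 3.10.9, and the counting interval came from scipy 1.17.1. No member matched the RefSeq table, so no sequences are shown. Replicate pairs differed by more than counting noise (2.32 to 15.6 times its variance).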

Additional observations from a re-analysis of the deposited data

Results flagged for a closer look

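The following members were called in opposite directions between the herbicides or between times, with the difference tested in limma. All members of this section were picked by those calls in the same libraries. The tests of the differences are therefore no independent support. For BnaC03g03480D, Hal minus Pic at 2 h was -1.33 on the log2 scale (adjusted p = 1.78e-09, -1.34 with equal totals), and the Pic response at 96 h minus that at 2 h was -1.56 (adjusted p = 3.09e-08, -1.14 with equal totals). For BnaA07g29810D, the Pic response at 96 h minus that at 2 h was -1.34 (adjusted p = 1.27e-07), and Hal minus Pic at 96 h was 1.26 (adjusted p = 2.60e-10). For BnaC06g33040D, Hal minus Pic at 48 h was 1.74 (adjusted p = 6.25e-11). In BnaA07g29810D and BnaC06g33040D the differences were also called with equal totals (-0.97, 1.44, and 1.90), but the fall after Pic against the control was not (0.05 and -0.25).

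Comparisons of neighbouring times, added after the values were seen, gave further such members, of which BnaA05g11640D, BnaC03g32790D, BnaC03g68600D, and BnaC09g40420D were chosen after their values were seen. From 48 to 96 h the Hal response changed by -2.27 in BnaC03g03480D (adjusted p = 6.14e-11), 1.52 in BnaA03g02470D (adjusted p = 2.82e-08), 1.21 in BnaC09g47560D (adjusted p = 0.00150), and 0.98 in BnaC03g32790D (adjusted p = 0.00329). Over the same interval the Pic response changed by 1.18 in BnaA03g02470D (adjusted p = 1.52e-06), 1.35 in BnaC09g47560D (adjusted p = 0.000513), -0.69 in BnaA07g29810D (adjusted p = 0.000791), 0.71 in BnaA05g11640D (adjusted p = 0.00588), and -1.07 in the GRAS gene BnaC03g68600D (adjusted p = 0.000359). From 2 to 48 h the Hal response changed by 1.23 in BnaC03g03480D (adjusted p = 5.14e-07). In that interval the Pic response changed by -0.88 in BnaA03g02470D (adjusted p = 7.24e-05), -1.56 in BnaC02g01170D (adjusted p = 0.000613), and 0.86 in the GRAS gene BnaC09g40420D (adjusted p = 0.00236). All 13 differences kept their direction and their call with equal totals of reads, although not every change against the control behind them was called there. Those not called included the falls after Pic at 48 h of BnaA03g02470D (-0.15) and BnaC02g01170D. The falls after Pic at 96 h of BnaA07g29810D (0.05) and BnaC03g68600D were not called there either.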

How the results depend on the processing

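Counts of called members depended most on the scaling and the level filter, and no named call turned direction in the contrast it was named for, while BnaC07g20900D and BnaC09g52270D after Hal at 96 h turned from -0.38 each to 0.24 and 0.23 with equal totals of reads. With equal totals, the counts up after Hal became 34 (GRAS) and 21 (TCP) at 48 h and 46 (GRAS) at 96 h, those down 1 (GRAS) at 48 h, and 1 (GRAS) and 5 (TCP) at 96 h. After Pic they became 22 and 14 up and 3 TCP down at 48 h, and 40 and 22 up and 1 and 6 down at 96 h, and the Hal response changed from 2 to 96 h in 74 members. With a filter at FPKM 5, which leaves fewer members, the GRAS counts up were 9 and 12 after Hal at 48 and 96 h, and 3, 5, and 14 after Pic at 2, 48, and 96 h, the GRAS counts down were 1 after Hal and 1 after Pic at 2 h and 5 after Pic at 96 h, the TCP counts up were 10 after Hal at 96 h and 2 and 3 after Pic at 48 and 96 h, and 19 members differed between Hal and Pic at 48 h, 26 between Hal responses and 14 between Pic responses. With only the groups compared, the counts were 1 GRAS up, 1 GRAS down, and 1 TCP up after Hal at 2 h, 4 GRAS down after Hal at 48 h, 9 GRAS up after Pic at 48 h, 5 for Hal against Pic at 2 h, and 18 and 15 between the controls. GRAS genes up after Hal at 2 h were 1 without a filter and 4 with voom, and GRAS genes down after Pic at 48 h were 2 with voom.

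Leaving out each library gave, after Hal at 2 h, 1 to 4 GRAS up, 0 to 3 GRAS down, 1 to 3 TCP up, and 2 to 5 TCP down. After Hal at 48 h it gave 5 to 9 GRAS down and 7 to 16 TCP up, after Pic at 2 h 2 to 4 GRAS and 2 to 6 TCP down, after Pic at 48 h 1 to 3 GRAS and 5 to 9 TCP down, after Pic at 96 h 14 to 24 GRAS up, and 10 to 18 members between Hal and Pic at 2 h. The libraries concerned are named with the counts above. Of 53 named calls, 50 held with equal totals, 51 without a filter, 46 with only the groups compared, 52 with a pseudocount of 0.1, 53 with voom, and 44 without any single library. The named calls include that of BnaC03g25370D, for which no test is given above.

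Replicate numbers did not pair the samples (27 correlations of same-numbered libraries from -0.21 to 0.11, with 1 over 0.1). With the replicate block, 1 GRAS gene was up, 1 GRAS gene down, and 1 TCP gene up after Hal at 2 h, 50 of the 53 named calls held, and of Hal against Pic at 2 h 1 GRAS and 0 TCP genes were higher after Hal (3 and 1 without it). No other count of members up or down against the control moved by over 1.5 times. The cause of these shifts was not tested. Depth limits genes with few reads, whose fold changes are uncertain.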
